A study of Mus musculus with 54 samples.

Results

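The genes described here are 7 delayed or feedback regulators, *Dusp1*, *Dusp6*, *Btg1*, *Btg2*, *Zfp36*, *Zfp36l1* and *Ppp1r15a*. They were taken by name, chosen with earlier results of these data known, and all 7 were listed in every C57BL/6J 10x library (12788 genes shared by these libraries) and in the C57BL/6J bulk libraries (27541 genes). The series holds 54 RNA libraries of adult mouse kidney in 18 groups of 3. Suspensions made by warm dissociation (a commercial enzyme kit at 37 °C) or by cold dissociation (a protease of *Bacillus licheniformis* that is active on ice) were profiled fresh, after cryopreservation in serum, medium and DMSO, or after methanol fixation. The C57BL/6J kidneys came from male AFAPIL.1DEL littermates aged 19 weeks in every group, warm and cold alike. They gave 18 10x libraries (chemistry version 2) of fresh, cryopreserved (6 weeks of storage) and methanol-fixed (3 months) suspensions, and 6 bulk libraries of the fresh warm and cold suspensions. Balb/c males aged 18 weeks gave cold fresh cells, nuclei and intact kidney RNA, and Balb/c females aged 15 weeks, wild-type ex-breeders, gave cold fresh and cryopreserved cells (2 weeks of storage, chemistry version 3), 3 preparations of nuclei, intact kidney RNA and bulk cold suspensions. Age and processing batch differed between all 3 of these experiments. Strain differed between the C57BL/6J and the Balb/c experiments. Sex and chemistry differed between the Balb/c females and the other 2 experiments, which used males and chemistry version 2. Factors that differed between 2 experiments cannot be told apart, so tests were made within an experiment.

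These regulators belong to 4 families of negative feedback. Dual-specificity phosphatases remove phosphate from MAP kinases: *Dusp1* encodes a nuclear enzyme that acts mainly on p38 and JNK, and *Dusp6* a cytoplasmic enzyme selective for ERK. *Btg1* and *Btg2* encode antiproliferative proteins that bind the CCR4-NOT complex, which shortens the poly(A) tails of messenger RNAs. *Zfp36* (tristetraprolin) and *Zfp36l1* encode zinc finger proteins that bind AU-rich elements of cytokine and immediate-early messages and bring the same complex to them. *Ppp1r15a* (GADD34) encodes the inducible subunit that directs protein phosphatase 1 to eIF2alpha, which restores translation after stress. Transcription of several of these genes is switched on within minutes of serum, cytokine or stress signals and their messages are short-lived.

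On GRCm38, *Dusp1* is annotated on chromosome 17 (26505590 to 26562128, minus strand), *Dusp6* and *Btg1* on chromosome 10 (99263231 to 99267489 and 96617006 to 96622809, both plus strand), *Btg2* on chromosome 1 (134075170 to 134079120, minus), *Zfp36* and *Ppp1r15a* on chromosome 7 (28376784 to 28380253 and 45522916 to 45526268, both minus) and *Zfp36l1* on chromosome 12 (80107754 to 80113013, minus). Exons of *Zfp36*, *Zfp36l1* and *Ppp1r15a* overlap exons of *Gm44710*, *Gm26669* and *Tulp2* on the other strand, and the strand setting of the bulk counting was not stated, so bulk reads of these pairs may be mixed.

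Promoters of *Dusp1*, *Btg2*, *Ppp1r15a* and *Zfp36*, the members with the largest rises in the bulk suspensions below, are printed here because a cAMP response element, a short motif bound by CREB and ATF factors, was found in 3 of them. Each sequence is the strand of the gene, 5′ to 3′, from 250 bases before to 50 bases after the start site in RefSeq on GRCm38.p6. Capitals mark the motif TGACGTCA in *Dusp1* (chr17:26508423-26508722, minus strand), *Btg2* (chr1:134079106-134079405, minus) and *Ppp1r15a* (chr7:45526219-45526518, minus), and a CArG box, the element bound by serum response factor, in *Zfp36* (chr7:28379179-28379478, minus).
Dusp1: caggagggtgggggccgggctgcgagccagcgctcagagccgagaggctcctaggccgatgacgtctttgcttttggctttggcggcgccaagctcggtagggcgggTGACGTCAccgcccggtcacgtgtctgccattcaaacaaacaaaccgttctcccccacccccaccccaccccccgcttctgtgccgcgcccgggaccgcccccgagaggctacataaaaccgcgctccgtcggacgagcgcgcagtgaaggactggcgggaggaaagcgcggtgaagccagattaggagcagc
Btg2: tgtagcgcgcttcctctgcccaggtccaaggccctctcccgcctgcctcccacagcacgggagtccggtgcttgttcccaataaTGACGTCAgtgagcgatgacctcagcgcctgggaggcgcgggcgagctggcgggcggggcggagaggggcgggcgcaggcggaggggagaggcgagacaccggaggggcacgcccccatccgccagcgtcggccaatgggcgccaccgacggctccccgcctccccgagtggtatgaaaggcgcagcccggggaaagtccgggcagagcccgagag
Ppp1r15a: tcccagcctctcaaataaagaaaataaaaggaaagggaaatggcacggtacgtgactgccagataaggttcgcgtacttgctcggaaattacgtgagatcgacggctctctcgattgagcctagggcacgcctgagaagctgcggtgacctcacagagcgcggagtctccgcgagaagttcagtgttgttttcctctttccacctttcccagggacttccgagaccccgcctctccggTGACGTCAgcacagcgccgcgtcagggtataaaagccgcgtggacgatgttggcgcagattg
Zfp36: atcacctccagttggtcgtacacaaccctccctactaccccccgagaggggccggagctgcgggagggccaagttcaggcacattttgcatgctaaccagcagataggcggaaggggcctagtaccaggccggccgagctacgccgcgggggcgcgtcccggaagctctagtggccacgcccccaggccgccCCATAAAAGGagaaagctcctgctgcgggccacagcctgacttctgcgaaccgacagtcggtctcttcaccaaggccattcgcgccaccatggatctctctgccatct

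TGACGTCA begins 143 bases before the start site in *Dusp1*, 166 before it in *Btg2* and 12 before it in *Ppp1r15a*. It reads the same on both strands and was present in 588 of 32851 promoters of this length (1.79%). The CArG box of *Zfp36* begins 58 bases before the start site, and this motif was present in 535 promoters (1.63%). The AP-1 motif TGANTCA, which also reads the same on both strands, was found in *Zfp36l1* alone, 129 bases before the start site, and in 2565 promoters (7.81%). An NF-kB motif, searched on both strands, was in 1907 promoters (5.81%) and in none of the 7 windows. *Dusp6* and *Btg1* held none of the 4 motifs. These are matches of letters in a window of 300 bases, and binding was not measured.

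The C57BL/6J 10x libraries held 782 to 5972 barcodes and 983434 to 14060779 UMIs, and the bulk suspensions of this experiment 5969212 to 8184923 reads. Proximal tubule markers, 8 genes such as those of apical transporters, took 22158 to 26109 CPM (counts scaled to the total of the library) of the bulk suspensions. Barcodes were gated to a cell class by UMIs of at least 2 of 8 markers of that class (3 for the proximal tubule) and at least 2 more than for any other class, and UMIs were summed per library and class. Of 47282 C57BL/6J barcodes, 31425 (66.5%) were gated. Cryopreserved C57BL/6J libraries held too few proximal tubule cells to test. Proximal tubule markers in the sums of other classes moved with storage. In endothelial sums the 8 proximal tubule markers together took 856 to 1388 CPM in cold fresh libraries, 38.9 to 42.0 CPM in cold cryopreserved libraries, with at least 5 of the 8 at 0 in each, and 2282 to 3468 CPM in cold methanol-fixed libraries. Their part in the storage results below was not tested. The warm cryopreserved replicate 1, with the lowest gated share (45.1%), and the warm methanol-fixed replicate 3, with the fewest barcodes (782), stood apart, and counts that rest on them are given with and without them.

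In bulk suspensions, 6 of the 7 regulators were called higher after warm than after cold dissociation, and for these 6 no warm library overlapped with a cold one. How many of all genes separate in this way was not counted, so nothing is read from that separation. *Dusp1*, *Btg2*, *Zfp36* and *Ppp1r15a* rose by 2.79 to 3.12 on the log2 scale, whereas *Btg1* and *Zfp36l1* rose by less than 1. Over all 14102 genes tested, 8.68% were called at an adjusted p of 0.05 (764 higher and 460 lower in warm), with a median log2 fold change of -0.01, against 2.79 for the 7 regulators. *Dusp1*, *Btg1* and *Btg2* are also among the genes that the study scored as stress genes on these samples, so their direction is not independent evidence.

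Among the phosphatases, *Dusp1* stood at 28.6, 28.7 and 33.5 CPM in the 3 cold suspensions and at 219, 254 and 293 CPM in the 3 warm suspensions. This was a log2 fold change of 3.05 (SE 0.11, adjusted p = 4.31e-09). *Dusp6* stood at 40.1, 41.0 and 51.3 CPM in cold and 43.0, 49.4 and 56.2 CPM in warm suspensions, so that the groups overlapped, and its log2 fold change was 0.15 (SE 0.12, adjusted p = 0.513). The ERK phosphatase was thus the 1 member of the 7 without a call.

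*Btg2* ran from 23.2 to 31.8 CPM in cold to 193 to 269.8 CPM in warm suspensions, a log2 fold change of 3.12 (SE 0.14, adjusted p = 2.89e-08). Its paralog *Btg1* stood at 53.5, 68.4 and 79.1 CPM in cold and 111, 132 and 134 CPM in warm suspensions, and rose by 0.88 (SE 0.12, adjusted p = 0.000548). The 2 BTG genes therefore moved in the same direction by unequal amounts.

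*Zfp36* held 13.3, 16.4 and 16.8 CPM in cold and 113, 122 and 154 CPM in warm suspensions, a log2 fold change of 3.05 (SE 0.14, adjusted p = 2.89e-08). *Zfp36l1* held 90.7, 91.0 and 91.8 CPM in cold, the narrowest spread of the 7, and 124, 127 and 135 CPM in warm suspensions, a log2 fold change of 0.47 (SE 0.07, adjusted p = 0.00105). *Ppp1r15a* held 7.54, 8.80 and 9.21 CPM in cold and 54.4, 61.7 and 65.0 CPM in warm suspensions, a log2 fold change of 2.79 (SE 0.12, adjusted p = 1.50e-08). All 6 calls were kept with any of the 6 libraries left out.

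Per exon length, the order of the levels changed between the protocols. In cold suspensions *Zfp36l1* was highest at 86.2 TPM (counts per exon length, scaled to a fixed total, the mean of 3), followed by *Dusp6* (44.5), *Dusp1* (36.1), *Btg1* (35.9), *Btg2* (27.0), *Zfp36* (12.6) and *Ppp1r15a* (8.21). In warm suspensions *Dusp1* was highest at 307 TPM, followed by *Btg2* (239), *Zfp36l1* (123), *Zfp36* (106), *Btg1* (67.9), *Ppp1r15a* (58.7) and *Dusp6* (50.6). Several neighbours in these orders overlapped. In cold suspensions the libraries of *Btg1* (28.3 to 41.9 TPM) overlapped with those of *Dusp1* (33.8 to 39.4 TPM) and *Btg2* (23.9 to 32.4 TPM). In warm suspensions *Dusp1* (263 to 357 TPM) overlapped with *Btg2* (198 to 279.6 TPM), and *Zfp36l1* (119.6 to 129 TPM) with *Zfp36* (91.8 to 126 TPM). *Ppp1r15a* (52.3 to 62.9 TPM) overlapped there with both *Btg1* (59.2 to 72.3 TPM) and *Dusp6* (43.4 to 58.1 TPM).

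Cell class markers moved with the protocol too. Summed over 8 markers each, markers of 4 tubule classes were higher in each warm than in each cold suspension, at 193 to 372 CPM in cold and 553 to 725 CPM in warm for principal cells, 273 to 299 and 459 to 530 CPM for intercalated cells, 2225 to 2819 and 3620 to 4797 CPM for the distal convoluted and connecting tubule and 4668 to 4862 and 5769 to 6804 CPM for the thick ascending limb. Mural markers were lower, at 325 to 436 CPM in cold and 233 to 237 CPM in warm, as were B cell markers (44.9 to 67.8 and 23.6 to 28.5 CPM), monocyte markers (48.6 to 56.3 and 25.3 to 28.4 CPM), podocyte markers (569 to 708 and 479 to 505 CPM) and proximal tubule markers (25332 to 26109 and 22158 to 24393 CPM). Dendritic, NK and neutrophil markers, each below 50 CPM, were also lower without overlap, whereas the endothelial ranges overlapped (738 to 930 and 773 to 828 CPM). In bulk RNA, fewer cells of a type and less RNA per cell cannot be told apart, and the part of makeup in these differences was not tested.

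**Figure D1:**
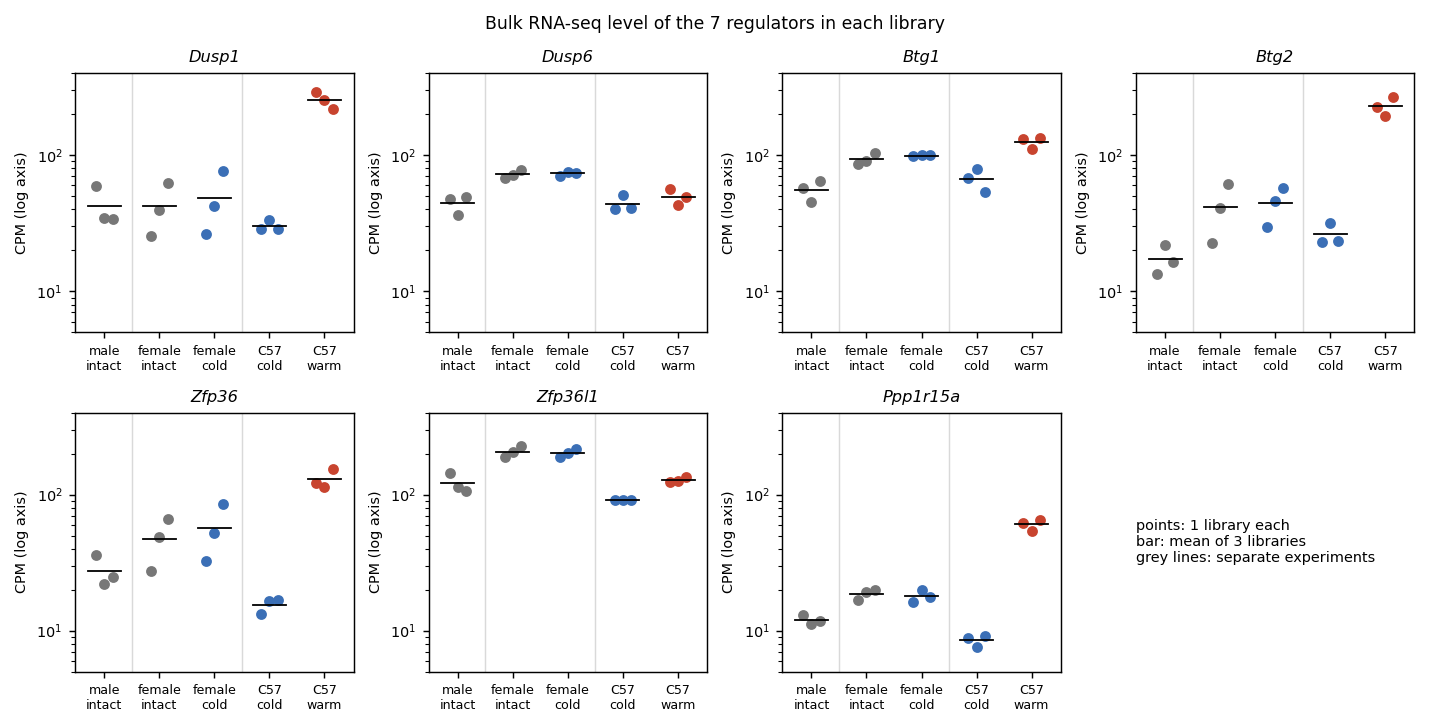
Bulk levels of the 7 regulators in CPM (log axis) in the 5 bulk groups, where each point is a library, each bar the mean of 3 and grey lines separate the 3 experiments. The warm C57BL/6J suspensions sit above the cold ones for every gene except *Dusp6*, and the intact and cold Balb/c female groups overlap for all 7 genes.

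In Balb/c females, cold suspensions were compared with intact kidney, which asks what the cold protocol itself changes. No regulator was called by the quasi-likelihood test of edgeR, none had an unadjusted p under 0.05 and none was called by DESeq2. Over all 16538 genes tested 20% were called by edgeR in this comparison, so 0 of 7 does not set the regulators apart. *Dusp1* ranged from 25.4 to 62.0 CPM in intact kidney and from 26.2 to 76.9 CPM in cold suspensions, a log2 fold change of 0.20 (SE 0.37, adjusted p = 0.768). *Zfp36* ranged from 27.4 to 66.0 CPM and from 32.7 to 84.9 CPM, with a log2 fold change of 0.25 (SE 0.34, adjusted p = 0.673). The replicates of a group were thus far apart for both genes, and the standard errors of *Dusp1*, *Btg2* and *Zfp36* (0.32 to 0.37) leave room for moderate differences. Replicates 1, 2 and 3 held 25.4, 39.6 and 62.0 CPM of *Dusp1* in intact kidney and 26.2, 42.6 and 76.9 CPM in cold suspensions. *Zfp36* and *Btg2* also rose in this order in both groups. Whether libraries of a number share a mouse is not stated, so the groups were tested unpaired. *Btg1* (0.08, SE 0.06, adjusted p = 0.414), *Ppp1r15a* (-0.05, SE 0.09, adjusted p = 0.745), *Zfp36l1* (-0.04, SE 0.07, adjusted p = 0.752) and *Dusp6* (0.01, SE 0.06, adjusted p = 0.904) had smaller errors. Endothelial markers took 582 to 665 CPM of intact kidney and 399 to 422 CPM of the cold suspensions. Intact Balb/c male kidney, from whose RNA ribosomal RNA was depleted whereas intact female kidney RNA was selected for poly(A), held 34.0 to 59.0 CPM of *Dusp1*, 13.5 to 21.9 CPM of *Btg2*, 21.9 to 35.7 CPM of *Zfp36* and 11.2 to 12.9 CPM of *Ppp1r15a*.

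In cold fresh cells the regulators had unlike distributions over the cell classes. *Dusp1* was highest in endothelial cells (412 ± 88.0 CPM, SD, n = 3 libraries), without overlap with the next class, mural cells, at 106 CPM. This order was not shared by Balb/c females, whose cold fresh mural libraries held 106, 219 and 477 CPM and overlapped with the endothelial ones given further below. *Dusp6* was highest in macrophages (111 CPM) and endothelial cells (95.8 CPM), whose libraries overlapped, and the endothelial libraries lay above those of the next class, T cells, at 43.9 CPM. In Balb/c female cold fresh cells the endothelial (44.9 to 73.9 CPM) and T cell libraries (29.1 to 80.3 CPM) of *Dusp6* overlapped. *Btg1*, a gene first found in a B cell leukemia, was highest in B cells (1243 ± 493 CPM) and T cells (951 ± 226 CPM) and lowest in the proximal tubule (40.6 ± 3.92 CPM). *Btg2* was likewise highest in B cells (257 CPM), without overlap with T cells at 132 CPM, and lowest in the proximal tubule (2.55 ± 1.73 CPM). *Zfp36l1* was highest in podocytes (343 CPM) and lowest in intercalated cells (57.6 CPM). Monocytes fell short of 10 cells in replicate 1 and are outside these orders. In replicates 2 and 3 monocytes held 21.7 and 31.3 CPM of *Zfp36l1*, 86.7 and 219 CPM of *Dusp6* and 43.4 and 251 CPM of *Dusp1*, each from 1 to 8 UMIs. *Zfp36* (highest in B cells at 58.7 CPM) and *Ppp1r15a* (highest in intercalated cells at 45.8 CPM) were low in every class, and for *Zfp36* every class overlapped with its neighbour in the order. CPM here are UMIs scaled to the UMIs of the class without mitochondrial genes.

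In fresh endothelial cells and macrophages *Dusp1*, *Btg2*, *Zfp36* and *Ppp1r15a* rose after warm dissociation. Counts over classes depend on a filter on low counts, which a gene can pass through the warm libraries alone, so a pair that passed in this way had to differ. Over 9 classes, *Dusp1* was called higher in 7 of 7 classes tested, *Ppp1r15a* in 7 of 7, *Zfp36* in 6 of 6, *Btg2* in 6 of 8, *Btg1* in 4 of 9, *Zfp36l1* in 1 of 8 and *Dusp6* in 0 of 3, and no regulator was called lower. For *Dusp6*, no class had an unadjusted p under 0.05 in edgeR and DESeq2 called none. Of the 63 pairs of regulator and class, 48 passed the filter. In all 31 pairs were called, and 4.84% of the 24716 pairs of gene and class were called in the same fits. By class this background was 7.94% in the proximal tubule, 3.45% in the thick ascending limb, 0.230% in the distal convoluted and connecting tubule, 4.57% in principal cells, 0.0722% in intercalated cells, 1.66% in endothelial cells, 4.81% in macrophages, 5.09% in T cells and 7.52% in B cells.

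In macrophages, *Dusp1* held 44.8, 54.0 and 59.7 CPM in the cold libraries and 1578, 1669 and 1927 CPM in the warm libraries, a log2 fold change of 5.06 (SE 0.24, adjusted p = 9.96e-10). In endothelial cells it held 312, 444 and 479.5 CPM in cold and 1163, 1307 and 1658 CPM in warm libraries, a log2 fold change of 1.76 (SE 0.18, adjusted p = 2.86e-05). The groups did not overlap in either class. In the proximal tubule, which gave 5545 cold and 6258 warm cells, *Dusp1* held 32.1, 37.5 and 46.5 CPM and 197, 408 and 446 CPM, with a log2 fold change of 3.25 (SE 0.27, adjusted p = 4.10e-05). In lymphocytes and principal cells the cold libraries held so few UMIs of *Dusp1* that a ratio with its counting interval is given in place of a fitted fold change. These were 3 UMIs in cold against 265 in warm T cells (ratio of CPM 108, 95% exact interval 36.5 to 527), 1 against 48 in B cells (82.1, 14.1 to 3310) and 1 against 64 in principal cells (113, 19.6 to 4546). *Dusp6* gave 0.25 (SE 0.25, adjusted p = 0.533) in the proximal tubule, 0.31 (SE 0.29, adjusted p = 0.722) in endothelial cells and 0.40 (SE 0.27, adjusted p = 0.606) in macrophages.

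*Btg2* rose in the proximal tubule by 4.07 (SE 0.50, adjusted p = 0.00117), in principal cells by 3.99 (0.29, 3.39e-10), in endothelial cells by 3.41 (0.25, 5.93e-07), in macrophages by 3.31 (0.24, 1.68e-07) and in T cells by 2.86 (0.29, 0.000107) on the log2 scale. In the thick ascending limb 6 UMIs of *Btg2* in cold stood against 300 in warm libraries, a ratio of CPM of 22.2 (95% exact interval 10.1 to 60.9, adjusted p = 2.04e-06). Endothelial cells held 67.6, 81.2 and 111 CPM in cold and 674, 902 and 1250.4 CPM in warm libraries, and macrophages 112, 119 and 133 CPM and 917, 1127 and 1479 CPM. In B cells, where its cold level was highest, *Btg2* gave 0.96 (SE 0.31, adjusted p = 0.0898) and was not called. *Btg1* rose in T cells by 1.70 (SE 0.22, adjusted p = 0.000694), in macrophages by 1.40 (0.23, 0.000807), in B cells by 1.31 (0.25, 0.00490) and in the proximal tubule by 0.97 (0.16, 0.00870). Without warm replicate 1 the proximal tubule call of *Btg1* was lost (0.86, adjusted p = 0.0557). In endothelial cells *Btg1* gave 0.60 (SE 0.19, adjusted p = 0.181), in the thick ascending limb 0.71 (SE 0.23, adjusted p = 0.117) and in principal cells 0.27 (SE 0.22, adjusted p = 0.636). *Btg2* was thus called in tubule, endothelial and immune classes, and *Btg1* in the 3 immune classes tested and the proximal tubule. These sets of calls do not show that the classes differ. Neither gene was called in the test of classes against the proximal tubule below.

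*Zfp36* in principal cells held 10.1, 11.9 and 14.0 CPM in cold and 674, 1373 and 1582 CPM in warm libraries, from 4 UMIs in cold and 226 in warm, a ratio of CPM of 100.1 (95% exact interval 38.6 to 370.5, adjusted p = 6.50e-11). Macrophages held 9.96, 26.6 and 45.7 CPM and 558, 644 and 866 CPM, with a log2 fold change of 4.59 (SE 0.36, adjusted p = 2.00e-07), and endothelial cells 18.7, 45.4 and 51.5 CPM and 171, 242 and 251 CPM, 2.42 (SE 0.28, adjusted p = 9.25e-05). In each of these classes the lowest warm library lay above the highest cold library. In the thick ascending limb, 2 UMIs of *Zfp36* in cold stood against 170 in warm libraries, a ratio of CPM of 37.7 (95% exact interval 10.3 to 314). In the proximal tubule the change was small, 17.7, 27.6 and 28.5 CPM in cold and 34.7, 39.8 and 85.0 CPM in warm libraries (1.22, SE 0.32, adjusted p = 0.0382). That call was lost when any of 5 of the 6 libraries was left out (all but warm replicate 3, range 0.62 to 1.45), so it rests on single libraries. *Zfp36l1*, by contrast, gave 0.09 (SE 0.23, adjusted p = 0.835) in the proximal tubule, -0.01 (0.23, 0.995) in the thick ascending limb, -0.15 (0.20, 0.820) in endothelial cells and 0.67 (0.29, 0.315) in macrophages. It was called in T cells alone (1.70, SE 0.35, adjusted p = 0.0140), and the call was lost without cold replicate 1 or 2 or warm replicate 2 (range 1.45 to 1.82) and with DESeq2 (adjusted p = 0.298).

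*Ppp1r15a* rose in macrophages from 4.98, 13.3 and 24.9 CPM to 249, 381 and 489.9 CPM, with a log2 fold change of 4.56 (SE 0.43, adjusted p = 1.85e-06). The UMIs were 9 in cold and 182 in warm, a ratio of CPM of 22.2 (95% exact interval 11.4 to 49.2). In endothelial cells it rose from 6.25, 22.5 and 45.4 CPM to 219.9, 288 and 292 CPM, 3.18 (SE 0.32, adjusted p = 2.36e-05). It also rose in the proximal tubule (2.39, SE 0.33, adjusted p = 0.00295) and, with 10 UMIs in cold and 70 in warm, in principal cells (ratio of CPM 12.4, 95% exact interval 6.36 to 27.0). In T cells 5 UMIs in cold stood against 119 in warm (29.1, 12.1 to 91.2, adjusted p = 0.000156) and in B cells 6 against 75 (21.4, 9.38 to 60.1, adjusted p = 0.000119). In the thick ascending limb, with 6 UMIs against 121 (8.95, 3.99 to 24.9, adjusted p = 0.0111), the call was lost without cold replicate 2 (2.97, adjusted p = 0.134). The lymphocyte sums rest on 97 to 237 cells per group, so their levels are less exact than those of the proximal tubule.

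**Figure D2:**
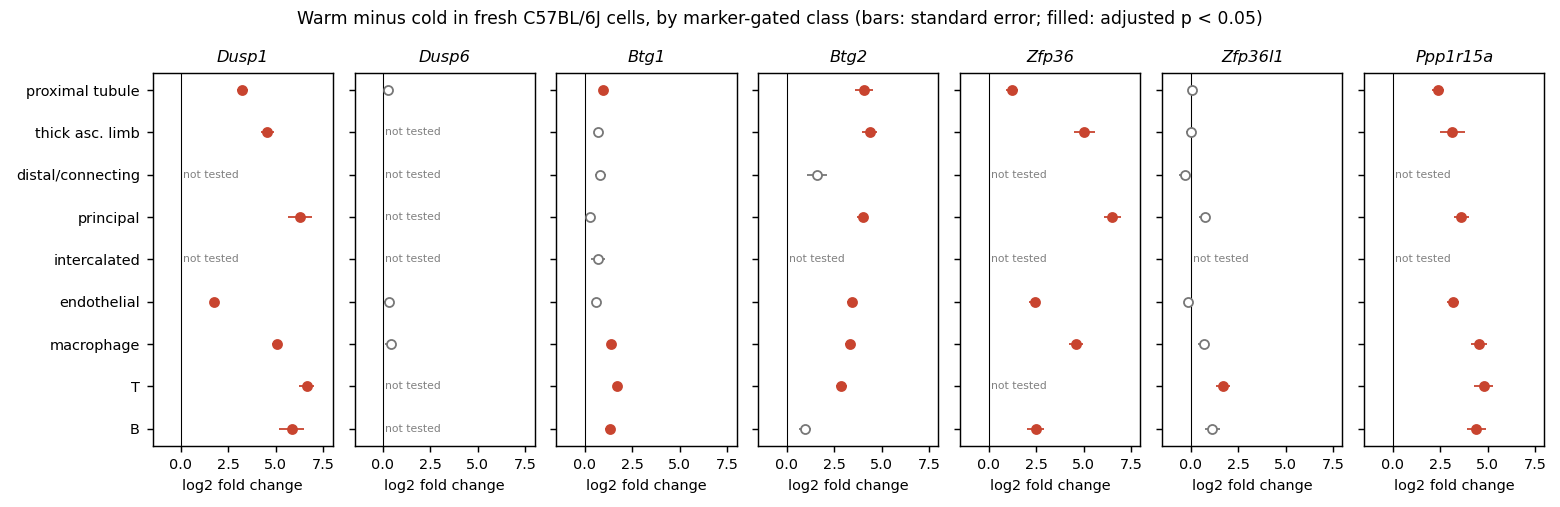
Log2 fold change of warm minus cold fresh C57BL/6J cells for each regulator (panels) in 9 gated classes, with bars of 1 standard error and filled red points for an adjusted p under 0.05. *Dusp1*, *Zfp36* and *Ppp1r15a* are called in the 7, 6 and 7 classes that passed the filter on low counts, some of them with 3 UMIs or fewer in cold, *Dusp6* in none, and the endothelial value of *Dusp1* is 1.76.

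The size of the response was compared between classes by testing whether warm minus cold in endothelial cells, macrophages or the thick ascending limb differed from that in the proximal tubule of the same libraries. Over the 3 classes 0.495% of 30682 pairs of gene and class were called, and 5 of the 21 pairs of regulator and class. *Dusp1* rose less in endothelial cells than in the proximal tubule, with a difference of -1.42 (SE 0.24, adjusted p = 6.00e-05), and more in macrophages, by 1.82 (SE 0.34, adjusted p = 7.81e-05), a call lost without cold replicate 2 (1.60, adjusted p = 0.0818). *Zfp36* rose more in macrophages by 3.45 (SE 0.39, adjusted p = 2.88e-15). It was also called in the thick ascending limb (adjusted p = 4.86e-07), where its cold libraries held 2 UMIs, so that the fitted size depends on the prior count of the fit, and DESeq2 did not call it (adjusted p = 0.307). *Ppp1r15a* rose more in macrophages by 2.22 (SE 0.57, adjusted p = 0.0302), but not when any of 5 of the 6 libraries was left out (all but warm replicate 2, range 1.79 to 2.83) or with DESeq2 (adjusted p = 0.170). The number of calls was 3 without cold replicate 2 and 3 with DESeq2. Proximal tubule markers stood at 856 to 1388 CPM in cold and 1223 to 1731 CPM in warm endothelial sums, and their part in these differences was not tested.

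In endothelial cells and macrophages, cold cryopreserved libraries held more *Dusp1*, *Zfp36*, *Ppp1r15a*, *Btg2* and *Btg1* than cold fresh ones, but no call was made for *Zfp36l1* or *Dusp6*. A gene can pass the filter through the stored libraries alone, so the counts over classes are partly set by it. In cryopreserved against fresh cold cells, *Dusp1* was called in 5 of 5 classes tested, *Zfp36* in 4 of 4, *Ppp1r15a* in 4 of 4, *Btg2* in 4 of 6, *Btg1* in 3 of 8, *Zfp36l1* in 0 of 6 and *Dusp6* in 0 of 2, all higher. DESeq2 called 19 pairs, *Dusp1* in 4 classes, *Zfp36* in 3, *Ppp1r15a*, *Btg2* and *Btg1* in 4 each, and *Zfp36l1* and *Dusp6* in 0. The *Dusp1* call in mural cells (1.60, SE 0.38, adjusted p = 0.0277) was lost with it (adjusted p = 0.328) and without cold fresh replicate 1 (adjusted p = 0.0646) or 2 (1.29, adjusted p = 0.163), and *Zfp36* in T cells had no DESeq2 adjusted p. In edgeR an unadjusted p under 0.05 was reached in 2 classes by *Zfp36l1* and in 0 by *Dusp6*. The edgeR calls were 20 pairs of the 56 over 8 classes, of which 35 passed the filter, and 6.95% of 16098 pairs of gene and class were called, 6.01% in endothelial cells and 13.3% in macrophages. The cold fresh libraries serve as controls here and in the warm comparison above, so the 2 sets of values are not independent.

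In macrophages *Dusp1* held 44.8, 54.0 and 59.7 CPM in fresh and 969, 1098 and 1314 CPM in cryopreserved cold libraries, a log2 fold change of 4.51 (SE 0.25, adjusted p = 1.75e-12). *Zfp36* held 9.96, 26.6 and 45.7 CPM and 336, 355 and 464 CPM, 3.83 (SE 0.34, adjusted p = 4.91e-09), and *Ppp1r15a* 4.98, 13.3 and 24.9 CPM and 158, 168 and 262 CPM, 3.73 (SE 0.40, adjusted p = 1.43e-07), with 9 UMIs in fresh. The cryopreserved macrophages lay above every fresh cold library for all 3 genes. *Btg2* rose by 2.26 (SE 0.22, adjusted p = 3.27e-08) and *Btg1* by 1.52 (SE 0.20, adjusted p = 2.99e-06) in the same cells, whereas *Dusp6* gave 0.40 (SE 0.26, adjusted p = 0.377) and *Zfp36l1* 0.57 (SE 0.25, adjusted p = 0.153). Each of these 5 macrophage calls was kept with any library left out.

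In endothelial cells *Dusp1* held 863, 877 and 913 CPM in the cryopreserved cold libraries, with a log2 fold change of 1.17 (SE 0.17, adjusted p = 0.000140) against fresh. *Ppp1r15a* held 207, 243 and 278 CPM (3.11, SE 0.31, adjusted p = 1.54e-06), *Zfp36* 155, 174 and 206 CPM (2.14, SE 0.28, adjusted p = 4.31e-05) and *Btg2* 231, 348 and 505 CPM (2.08, SE 0.26, adjusted p = 3.61e-05). *Btg1* held 866, 877 and 1012 CPM (1.10, SE 0.18, adjusted p = 0.000739), which is above its level in warm fresh endothelial cells (602, 633 and 786 CPM) in each library. Endothelial *Dusp6* (0.01, SE 0.24, adjusted p = 0.988) and *Zfp36l1* (0.09, SE 0.19, adjusted p = 0.878) were not called.

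In lymphocytes *Zfp36* rose in B cells by 2.31 (SE 0.37, adjusted p = 0.000157). *Ppp1r15a* went from 5 to 121 UMIs in T cells (ratio of CPM 19.3, 95% exact interval 8.05 to 60.6, adjusted p = 1.95e-06) and from 6 to 97 UMIs in B cells (10.7, 4.75 to 29.9, adjusted p = 8.82e-06). *Dusp1* went from 3 to 111 UMIs in T cells (ratio of CPM 29.5, 95% exact interval 9.85 to 145) and from 1 to 62 UMIs in B cells (41.1, 7.11 to 1649), and *Zfp36* from 3 to 41 UMIs in T cells (10.9, 3.48 to 55.1). *Btg2* rose in T cells by 1.35 (SE 0.31, adjusted p = 0.00668) and in intercalated cells by 2.11 (SE 0.39, adjusted p = 0.00451), but gave 0.27 (SE 0.28, adjusted p = 0.609) in B cells. The *Btg1* call in T cells (0.79, SE 0.24, adjusted p = 0.0404) was lost without cold fresh replicate 1 or 3 or cold cryopreserved replicate 2 (range 0.67 to 1.01), and *Btg1* gave 0.62 (SE 0.22, adjusted p = 0.0652) in B cells. With the replicate number shared by fresh and stored libraries as a block, *Btg1* was also called in B cells (0.68, adjusted p = 0.0246) and podocytes (0.80, adjusted p = 0.0323). *Ppp1r15a*, below the filter without the block, was called in intercalated (1.60, adjusted p = 0.0338) and mural cells (adjusted p = 0.0347). These 2 pairs may have passed it through the cryopreserved libraries alone. In mural cells *Ppp1r15a* held 4, 1 and 0 UMIs in fresh and 28, 12 and 0 UMIs in cryopreserved replicates 1, 2 and 3, so no fold is given. Summed proximal tubule markers fell from 903 to 1812 CPM in cold fresh to 21.9 to 74.3 CPM in cold cryopreserved macrophages, and from 926 to 1598 CPM to 29.1 to 75.7 CPM in B cells. The part of these markers in the higher levels was not tested.

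**Figure D3:**
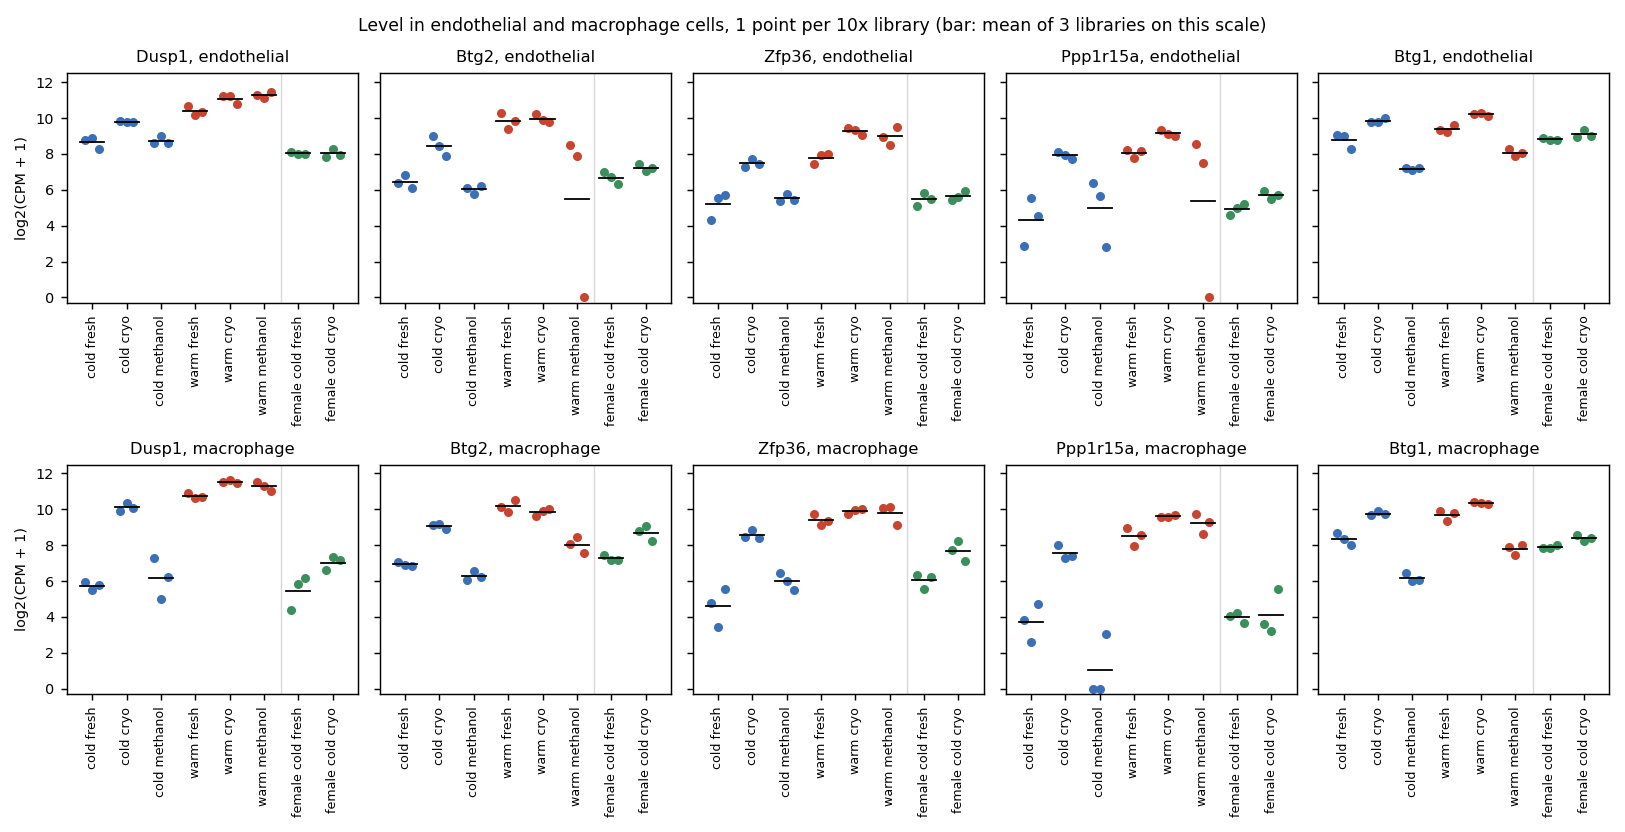
Levels of *Dusp1*, *Btg2*, *Zfp36*, *Ppp1r15a* and *Btg1* as log2(CPM + 1) per library in endothelial cells and macrophages of the 6 C57BL/6J groups and the 2 Balb/c female cell groups, with a bar for the mean on that scale. For macrophage *Dusp1* the cold fresh libraries (44.8 to 59.7 CPM) lie below every warm and every cryopreserved C57BL/6J library.

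Cryopreservation of warm suspensions was followed by further rises of *Dusp1*, *Btg1*, *Zfp36* and *Ppp1r15a* in some classes. Of 47 pairs tested (56 in all) 12 were called, all higher, with a background of 8.17% of 12846 pairs tested. The count was 7 without the warm cryopreserved replicate 3, 11 without the warm cryopreserved replicate 1 and 14 with DESeq2. In endothelial cells *Zfp36* rose further by 1.59 (SE 0.18, adjusted p = 2.39e-05), *Ppp1r15a* by 1.26 (SE 0.16, adjusted p = 0.000103), *Btg1* by 0.99 (SE 0.13, adjusted p = 0.000119) and *Dusp1* by 0.84 (SE 0.14, adjusted p = 0.00139). In macrophages *Ppp1r15a* rose by 1.30 (SE 0.22, adjusted p = 0.000942), *Dusp1* by 0.96 (SE 0.13, adjusted p = 0.000123) and *Btg1* by 0.83 (SE 0.16, adjusted p = 0.00270). Macrophage *Zfp36* was called at 0.68 (SE 0.18, adjusted p = 0.0215) and lost the call without warm fresh replicate 2 or 3 or warm cryopreserved replicate 2 or 3 (range 0.54 to 0.86). *Btg2*, by contrast, was called in 0 of 8 classes by edgeR (3 with an unadjusted p under 0.05) and in 0 by DESeq2, with 0.27 (SE 0.18, adjusted p = 0.456) in endothelial cells, -0.12 (SE 0.18, adjusted p = 0.717) in macrophages and -0.58 (SE 0.22, adjusted p = 0.125) in T cells. With the replicate block *Btg2* (1.55, adjusted p = 0.0289) and *Ppp1r15a* (2.85, adjusted p = 0.0122), the latter below the filter without it, were called higher in the distal convoluted and connecting tubule. *Ppp1r15a* may have passed the filter there through the cryopreserved libraries alone.

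Among endothelial cells of the 6 C57BL/6J groups, the warm cryopreserved ones had the highest means of *Zfp36* (524, 640.4 and 685 CPM) and *Btg1* (1114 to 1264 CPM). The endothelial libraries of *Zfp36* after warm methanol fixation (365, 493 and 714 CPM) overlapped with them.

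Cryopreserved Balb/c female cells, stored for 2 weeks, give another comparison of cryopreserved with fresh cold cells. Here 8 of 53 pairs of regulator and class tested (70 in all) were called, all higher, against 5.72% of 55255 pairs of gene and class tested. The count was 4 without cold fresh replicate 2 or cold cryopreserved replicate 2, and 5 with DESeq2. In macrophages *Btg2* held 144, 144 and 175 CPM in fresh and 295, 451 and 546 CPM in cryopreserved libraries, a log2 fold change of 1.50 (SE 0.22, adjusted p = 0.000318). *Zfp36* went from 45.7, 74.8 and 79.6 CPM to 137, 215 and 300.2 CPM (1.70, SE 0.29, adjusted p = 0.00108) and *Zfp36l1* from 179, 203 and 296 CPM to 419, 425 and 496 CPM (0.97, SE 0.19, adjusted p = 0.00370). These 3 macrophage calls were kept with any library left out. *Dusp1* in macrophages went from 19.9, 56.3 and 71.9 CPM to 96.2, 141 and 163 CPM (1.35, SE 0.32, adjusted p = 0.0140), and this call was lost without cold cryopreserved replicate 2 (1.19, adjusted p = 0.0892) and with DESeq2 (adjusted p = 0.0761).

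In Balb/c female endothelial cells 0 of 7 regulators were called by edgeR or DESeq2, and 3 had an unadjusted p under 0.05 in edgeR. Over all 7562 genes tested in this class edgeR called 1.71%, so 0 of 7 does not set the regulators apart. *Dusp1* held 255, 256 and 271 CPM in fresh and 229, 247 and 309 CPM in cryopreserved libraries, a log2 fold change of 0.00 (SE 0.14, adjusted p = 0.997). *Ppp1r15a* gave 0.79 (SE 0.24, adjusted p = 0.140), *Btg2* 0.54 (SE 0.18, adjusted p = 0.186), *Btg1* 0.30 (SE 0.14, adjusted p = 0.362) and *Zfp36* 0.17 (SE 0.24, adjusted p = 0.845). Set beside these, the C57BL/6J value of *Dusp1* in cold endothelial cells was 1.17 and that of *Ppp1r15a* 3.11. A difference between the experiments was not tested, since strain, sex, storage time and centrifugation differed together. Proximal tubule markers took 698 to 2057 CPM of the female fresh and 131 to 273 CPM of the female cryopreserved endothelial sums, and 927 to 2473 and 174 to 214 CPM of the macrophage sums. The remaining 4 female calls, *Btg1* (0.71) and *Ppp1r15a* (1.64) in the proximal tubule, *Btg2* in the distal convoluted and connecting tubule (0.86) and *Ppp1r15a* in intercalated cells (1.19), had adjusted p values of 0.00701 to 0.0499. Each was lost without 1 library or more. These were cold cryopreserved replicate 2 for *Ppp1r15a* in the proximal tubule (1.34, adjusted p = 0.123), cold fresh replicate 2 and cold cryopreserved replicates 1 and 3 for *Btg1* (0.38 to 1.01), all but cold fresh replicate 3 for *Btg2* (0.54 to 1.05) and all but cold cryopreserved replicate 1 for *Ppp1r15a* in intercalated cells (1.00 to 1.44).

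After methanol fixation of cold suspensions, the regulators that were called were lower, and 10 of the 15 calls were of *Btg1*. In methanol-fixed against fresh cold cells 15 of 31 pairs tested (70 in all) were called, all lower, and 20.4% of 24371 pairs of gene and class tested were called. By class this background ran from 7.37% in mural cells to 28.5% in B cells, with 27.8% in endothelial cells and 24.6% in macrophages. A fall of the regulators as a set is not shown by these counts. A pair can pass the filter through the fresh libraries alone, so these counts are partly set by it. Mural *Zfp36l1*, for example, held 18, 19 and 19 UMIs in fresh and 0, 6 and 3 UMIs in fixed libraries. The count was 9 without cold methanol-fixed replicate 3 and 7 with DESeq2, which gave 2 of the 15 no adjusted p. *Btg1* was lower in 10 of 10 classes (5 with DESeq2), *Zfp36l1* in 4 of 9 (2 with DESeq2) and *Btg2* in 1 of 5 (0 with DESeq2), and *Dusp1* (2 classes tested), *Dusp6* (3), *Zfp36* (1) and *Ppp1r15a* (1) were called in 0 by edgeR or DESeq2, with an unadjusted p under 0.05 in 1 class of *Dusp6*. That class was the proximal tubule, where *Dusp6* was called lower with the replicate block (-0.73, adjusted p = 0.00279).

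In macrophages *Btg1* held 258, 319 and 412 CPM in fresh and 63.0, 66.8 and 88.0 CPM in methanol-fixed cold libraries, a log2 fold change of -2.43 (SE 0.33, adjusted p = 8.23e-05). In endothelial cells it fell from 312, 516 and 537 CPM to 137, 147 and 150.3 CPM, a log2 fold change of -1.66 (SE 0.23, adjusted p = 0.000166). The fixed libraries lay below every fresh library in both classes. *Btg1* also fell in T cells (-2.31, SE 0.37, adjusted p = 0.00410), B cells (-2.0, 0.33, 0.000397), the thick ascending limb (-1.94, 0.39, 0.00227) and principal cells (-1.86, 0.32, 0.000718), and these 6 calls were kept with any library left out. In the proximal tubule (-0.64), the distal convoluted and connecting tubule (-1.49), podocytes (-1.27) and mural cells (-1.76) the call was lost without cold fresh replicate 2 (all but mural cells), cold fresh replicate 1 (podocytes) or cold methanol-fixed replicate 1 (proximal tubule), 2 (proximal tubule and mural cells) or 3 (all but the proximal tubule), with values from -2.23 to -0.56. DESeq2 called *Btg1* in none of these 4 classes (adjusted p = 0.0622 to 0.181) and gave no adjusted p in the thick ascending limb.

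*Zfp36l1* was lower in the distal convoluted and connecting tubule (-2.16, SE 0.44, adjusted p = 0.00182) and in the thick ascending limb (-1.46, SE 0.33, adjusted p = 0.00448), calls kept with any library left out, the first of which was lost with DESeq2 (adjusted p = 0.0796). Its calls in the proximal tubule (-0.73, SE 0.19, adjusted p = 0.0175, range -0.93 to -0.62) and in mural cells (-1.66, SE 0.48, adjusted p = 0.0470, range -1.90 to -1.43) were lost without cold fresh replicate 3 or cold methanol-fixed replicate 1 or 3 (both), cold fresh replicate 2 (proximal tubule) or cold fresh replicate 1 or cold methanol-fixed replicate 2 (mural cells). The call in mural cells was also lost with the replicate number as a block (adjusted p = 0.0801) and with DESeq2 (adjusted p = 0.216). In endothelial cells *Zfp36l1* gave -0.64 (SE 0.25, adjusted p = 0.0738) without and -0.72 (adjusted p = 0.0222) with the block, and in macrophages -0.81 (SE 0.35, adjusted p = 0.103). *Dusp1* stood at 383, 386 and 516 CPM in the fixed endothelial cells, a difference of 0.08 (SE 0.20, adjusted p = 0.801) from fresh. Thus *Btg1* fell in cells in which *Dusp1* gave a difference near 0.

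After warm dissociation, methanol-fixed cells held less *Btg1* and *Btg2* than fresh cells. Of 28 pairs tested (35 in all) 9 were called lower and 1 higher, with a background of 10.1% of 15533 pairs tested, and 10 were also called without the warm methanol-fixed replicate 3 but 4 without the warm methanol-fixed replicate 2. Here too a pair can pass the filter through the fresh libraries alone. *Btg1* fell in macrophages from 658, 886 and 972 CPM to 174, 237 and 253 CPM (-2.15, SE 0.32, adjusted p = 0.00231), in endothelial cells (-1.46, SE 0.24, adjusted p = 0.00325) and in the thick ascending limb (-1.42, SE 0.30, adjusted p = 0.00905). *Btg2* fell in macrophages from 917, 1127 and 1479 CPM to 189.8, 271 and 349 CPM (-2.14, SE 0.31, adjusted p = 0.00219). In endothelial cells *Btg2* went from 674, 902 and 1250.4 CPM to 0, 238 and 358 CPM (-2.04, SE 0.38, adjusted p = 0.00571), a call lost without the warm methanol-fixed replicate 2 (-2.13, adjusted p = 0.0578). *Dusp1* in endothelial cells was the 1 regulator called higher (0.70, SE 0.17, adjusted p = 0.0181), at 2258, 2485 and 2789 CPM, and the call was lost without any of warm fresh replicates 2 and 3 and warm methanol-fixed replicates 1 and 2 (range 0.54 to 0.77). With the replicate block, *Dusp1* (0.32, adjusted p = 0.0219) and *Zfp36* (0.57, adjusted p = 0.00354) were also called higher and *Btg2* (-1.13, adjusted p = 0.000307) lower in the proximal tubule. Proximal tubule markers took 1625 to 1961 CPM of warm methanol-fixed and 973.5 to 1881 CPM of warm fresh macrophage sums, and their part in these falls was not tested.

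**Figure D4:**
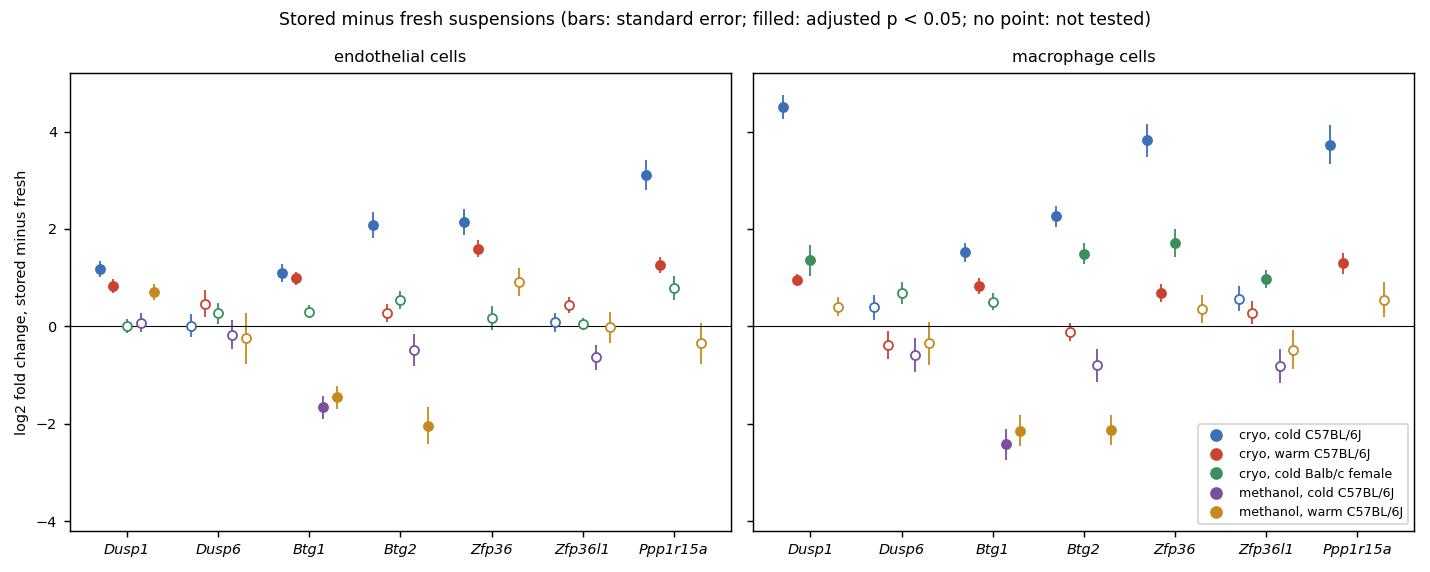
Log2 fold change of stored minus fresh cells, with bars of 1 standard error, for the 7 regulators in endothelial cells and macrophages under 5 comparisons of cryopreserved or methanol-fixed with fresh cells. In macrophages the cold cryopreserved C57BL/6J values of *Dusp1* (4.51), *Zfp36* (3.83) and *Ppp1r15a* (3.73, with 9 UMIs in fresh) lie highest, and the methanol values of *Btg1* (-2.43 in cold and -2.15 in warm) lie lowest.

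Warm dissociation was still marked in stored cells. In cryopreserved cells, warm minus cold was called in 28 of 38 pairs tested (42 in all), all higher, against 7.08% of 11601 pairs tested, and in 25 without the warm cryopreserved replicate 1. A pair can pass the filter through the warm libraries alone, so the counts over classes are partly set by it. *Dusp1* and *Ppp1r15a* were called in 6 of 6 classes, *Btg1*, *Btg2* and *Zfp36* in 5 of 6 and *Zfp36l1* in 1 of 5. DESeq2 called 21 pairs, among them 3 each of *Btg1* and *Btg2*, 4 of *Zfp36* and 5 each of *Dusp1* and *Ppp1r15a*. In macrophages *Dusp1* held 969, 1098 and 1314 CPM in cold and 2784, 2909 and 3194 CPM in warm cryopreserved libraries (1.52, SE 0.15, adjusted p = 1.21e-07), and *Ppp1r15a* 158, 168 and 262 CPM and 758, 766 and 829 CPM (2.15, SE 0.19, adjusted p = 2.11e-08). The libraries of the protocols did not overlap for either gene. In principal cells *Zfp36* gave 5.26 (SE 0.40, adjusted p = 6.30e-10) and *Btg2* 3.41 (SE 0.27, adjusted p = 1.41e-09), and in endothelial cells *Zfp36* gave 1.86 (SE 0.17, adjusted p = 1.97e-07) and *Btg2* 1.58 (SE 0.19, adjusted p = 1.20e-05).

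In methanol-fixed cells 10 of 16 pairs tested (35 in all) were called, all higher in warm, against 3.11% of 12090 pairs tested, and 12 without the warm methanol-fixed replicate 3. Here too a pair can pass the filter through the warm libraries alone and then had to be higher in warm, so this count is partly set by it. DESeq2 called 8, with 0 of *Btg2*, and gave 2 of the 10 no adjusted p. *Dusp1* rose in macrophages from 31.5, 74.2 and 154 CPM to 2087, 2506 and 2945 CPM (5.19, SE 0.32, adjusted p = 2.01e-08), in the proximal tubule by 3.66 (SE 0.23, adjusted p = 2.14e-07) and in endothelial cells by 2.48 (SE 0.20, adjusted p = 2.50e-07). *Zfp36* rose in the same classes by 4.16 (SE 0.34, adjusted p = 3.61e-07), 2.11 (0.33, 0.00248) and 3.22 (0.35, 1.84e-05). *Ppp1r15a* rose in the proximal tubule by 1.86 (SE 0.29, adjusted p = 0.00248), and its macrophage UMIs went from 1 to 60 (ratio of CPM 153, 95% exact interval 26.3 to 6123). *Zfp36* in the thick ascending limb held 0 UMIs in the cold libraries and 33, 9 and 2 UMIs in warm methanol-fixed replicates 1, 2 and 3, so replicate 1 holds most of the 44 UMIs and no fold is given. *Btg2* rose in macrophages by 1.99 (SE 0.39, adjusted p = 0.00273), a call lost without cold methanol-fixed replicate 3 (1.88, adjusted p = 0.0513), with DESeq2 (adjusted p = 0.0981) and with the replicate number as a block (adjusted p = 0.0588). *Btg1* gave 0.89 (SE 0.31, adjusted p = 0.188) in endothelial cells and was called in 0 classes by edgeR (2 with an unadjusted p under 0.05) and in 0 by DESeq2.

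The size of the warm response was compared between stored and fresh cells in 1 fit of the 4 groups. In cryopreserved against fresh cells 12 of 38 pairs tested (42 in all) were called, all smaller after cryopreservation, against 0.566% of 14492 pairs tested (64 smaller and 18 larger among all genes), and 11 without the warm cryopreserved replicate 1. In macrophages the difference was -3.49 (SE 0.28, adjusted p = 2.86e-09) for *Dusp1*, -3.09 (0.41, 2.75e-05) for *Zfp36*, -2.32 (0.29, 1.03e-05) for *Btg2* and -2.36 (0.51, 0.0122) for *Ppp1r15a*. *Dusp1* was also called in T and B cells (adjusted p = 6.95e-06 and 0.00130), and *Ppp1r15a* in T cells (adjusted p = 0.00123). The fresh cold T cells held 3 UMIs of *Dusp1*, with 0, 1 and 2 per library, and 3, 2 and 0 UMIs of *Ppp1r15a*, and the fresh cold B cells 1 UMI of *Dusp1*, so the fitted sizes of these differences depend on the prior count of the fit. In endothelial cells the warm response of *Dusp1* was 1.76 fresh and 1.41 cryopreserved, and the difference of -0.33 (SE 0.23, adjusted p = 0.760) was not called. Beside these values, cold cryopreserved macrophages held 969, 1098 and 1314 CPM of *Dusp1* and cold fresh ones 44.8, 54.0 and 59.7 CPM. In methanol-fixed against fresh cells 0 of 31 pairs tested (35 in all) were called by the quasi-likelihood test of edgeR, as were 0 of 20050 pairs of gene and class (0%). There 5 pairs of regulator and class had an unadjusted p under 0.05, DESeq2 called 0, and with the replicate number as a block 1 was called, *Zfp36* in the proximal tubule (0.92, adjusted p = 0.0342).

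**Figure D5:**
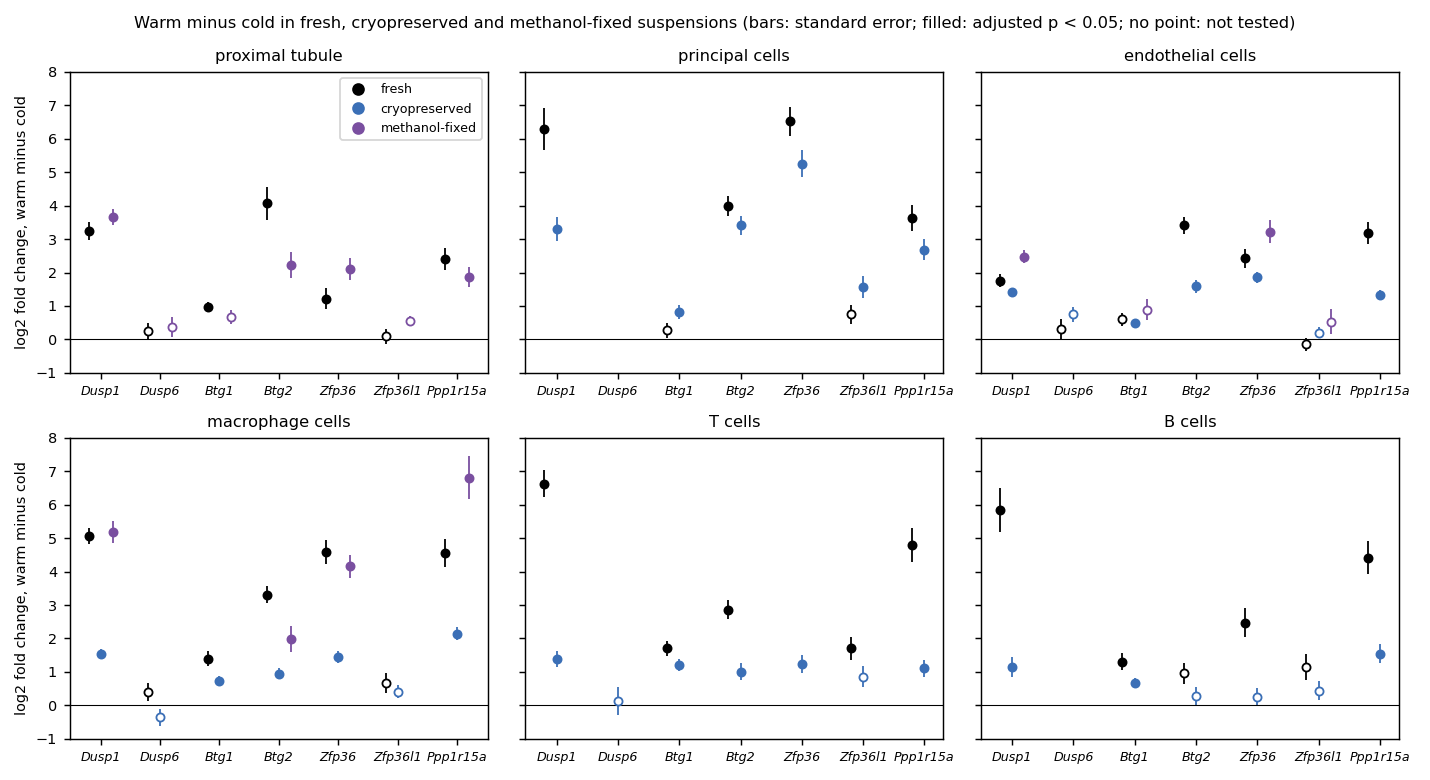
Warm minus cold log2 fold change, with bars of 1 standard error, in fresh, cryopreserved and methanol-fixed C57BL/6J cells for the 7 regulators in 6 classes. For *Dusp1* in macrophages the fresh (5.06) and methanol-fixed (5.19) values lie together and the cryopreserved value (1.52) lies lower, whereas in endothelial cells the 3 values run from 1.41 to 2.48.

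In libraries without a warm comparison only levels are given. Cold fresh endothelial cells of Balb/c males held 258, 413 and 586 CPM of *Dusp1* and those of females 255, 256 and 271 CPM, beside 312, 444 and 479.5 CPM in C57BL/6J. Endothelial nuclei, for which intronic reads were also counted, held 190.1, 258 and 283 CPM of *Dusp1* in males. In females they held 64.5, 76.3 and 94.8 CPM in sorted nuclei spun at 500g with 3 washes, 65.9, 79.6 and 102 CPM in sorted nuclei spun at 2000g with 1 wash and 73.7, 80.5 and 81.9 CPM in nuclei from a sucrose gradient. The 3 female preparations overlapped for *Dusp1*. *Btg2* in endothelial nuclei stood at 32.9, 40.0 and 50.9 CPM, 39.2, 51.0 and 54.5 CPM and 63.7, 67.9 and 84.0 CPM in the same order, the sucrose libraries lying above both sorted groups. *Zfp36* stood at 16.1 to 26.3, 20.8 to 21.4 and 19.4 to 20.4 CPM and *Ppp1r15a* at 2.35 to 4.54, 3.82 to 6.27 and 3.80 to 7.73 CPM. The nuclei were normalized over other genes and reads than the cells and were not tested against them.

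Relatives and partners of the regulators were counted from lists of the same pathways. In the bulk suspensions, 4 of 10 other dual-specificity phosphatases tested were higher in warm and none lower. *Dusp2*, an inducible nuclear phosphatase of lymphoid cells, rose from 1.08 ± 0.309 to 5.81 ± 1.54 CPM (SD, n = 3 each, log2 fold change 2.39, SE 0.32, adjusted p = 0.000669), and *Dusp5*, a nuclear ERK phosphatase, from 2.79 ± 0.647 to 11.9 ± 1.04 CPM (2.05, SE 0.20, adjusted p = 5.97e-05). Of 6 Sprouty and Spred inhibitors tested, *Spry1* alone rose (0.46, SE 0.13, adjusted p = 0.0491), and of 14 MAP kinases, their kinases included, and 10 CCR4-NOT subunits none was called by edgeR, with an unadjusted p under 0.05 for 1, *Cnot11* (-0.27, SE 0.10, adjusted p = 0.119), which is named after its values were seen. *Tob1* (0.60, SE 0.08, adjusted p = 0.000445) and *Tob2* (0.30, SE 0.08, adjusted p = 0.0290), antiproliferative relatives of the BTG proteins, rose among 3 tested.

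Of 10 messages with AU-rich elements that Zfp36 binds, 3 were below the filter and 7 were called higher in warm suspensions, some of which passed the filter through the warm libraries alone, so nothing is read from that count. *Cxcl2*, a neutrophil chemokine, stood at 0 to 0.168 CPM in cold and 2.68 to 4.20 CPM in warm suspensions, and *Cxcl1* at 0 to 0.476 CPM and 4.15 to 5.21 CPM. Of 6 other AU-rich element binding proteins 0 were called by edgeR, and 0 had an unadjusted p under 0.05. Among 12 tested genes of the eIF2 pathway, in which Ppp1r15a acts, *Atf4* alone was called, from 65.0 ± 7.42 to 98.6 ± 7.33 CPM (0.58, SE 0.10, adjusted p = 0.00316). Of all genes 8.68% were called in this comparison. In fresh cells over 9 classes, 4 of 10 pairs of other phosphatase and class, 6 of 9 of AU-rich message and class and 1 of 35 of eIF2 gene and class were called higher, and 0, 0 and 0 lower, against 4.84% of all pairs of gene and class. After cryopreservation of cold C57BL/6J cells these were 3 of 7, 5 of 6 and 6 of 32 higher, with 1 eIF2 pair lower, against 6.95% of all pairs, and of cold Balb/c female cells 1 of 22, 0 of 10 and 3 of 74 higher and none lower, against 5.72%. Pairs of low messages can pass the filter through the warm or stored libraries alone, and nothing is read from these counts.

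The genes most like the regulators over the endothelial sums of the 18 C57BL/6J libraries were sought among 5954 genes, by Pearson's r of log2 CPM. They were *Junb* (0.95), *Jund* (0.94) and *Ier2* (0.94) for *Dusp1*, *Hspa1b* (0.94), *Junb* (0.94) and *Ier2* (0.93) for *Zfp36*, *Taf7* (0.91), *Socs3* (0.90) and *Tmx4* (0.88) for *Btg2*, and *Gadd45g* (0.93), *Taf7* (0.90) and *Egr1* (0.89) for *Ppp1r15a*. Among the members, *Dusp1* and *Zfp36* gave 0.95, *Btg2* and *Ppp1r15a* 0.86, and *Dusp1* and *Btg2* 0.58. The 18 libraries fall into 6 protocol groups and share their depth, so these values describe the libraries and carry no test.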

How the data were processed

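The authors counted UMIs per gene and barcode with Cell Ranger 2.1.1 on mm10 (exonic reads for cells, intronic reads also for nuclei), kept barcodes with EmptyDrops and filters on genes and mitochondrial share, and deposited the counts without normalization. Mitochondrial genes were removed from the nuclei. For the bulk libraries the authors aligned reads to GRCm38 with STAR 2.6.1a and deposited featureCounts read counts per gene. The strand setting and the treatment of marked duplicates are not given in the sources used here.

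The members, markers and pathway lists were chosen with earlier results of these data known. A barcode was gated to 1 of 16 classes with 8 markers each, proximal tubule markers being left out of the comparison for classes outside the tubule, because their UMIs occur in barcodes of other classes. Barcodes that passed for 2 or more classes (64 in the C57BL/6J cells) were left out, and no doublet caller was run. UMIs of a class were summed per library without mitochondrial genes, and a class was tested where each library held 10 or more cells. For each comparison edgeR 4.0.16 (R 4.3.3) was run on these counts with its quasi-likelihood F test, after filterByExpr and TMM, and p values were adjusted by Benjamini-Hochberg over all genes of a fit (called at 0.05). The SE of a log2 fold change is its size divided by the square root of F, which can be too small where counts are few. Means are given with the SD over 3 libraries, which by the study's account are biological replicates from kidneys of 3 different mice. Fresh and stored libraries came from aliquots of the same suspensions, and the main tests of stored against fresh cells did not pair them. Whether warm and cold suspensions of a number share a mouse is not stated. For called pairs with 10 UMIs or fewer in the lower group, ratios of UMIs have 95% exact intervals, which cover counting error only. TPM used exon lengths of GENCODE vM21. Promoters come from RefSeq (GRCm38.p6).

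Besides the 7 members, genes were named by a rule: up to 2 called genes of each pathway list with the largest bulk change, and the 3 genes with the highest Pearson's r (log2 of CPM + 0.5, mean of 20 CPM or more). *Cnot11* is named outside this rule. Alternatives were DESeq2 1.42.0, RLE factors, no filter on low counts, mitochondrial genes kept, a gate of 1 more marker, 1 fit over all C57BL/6J groups and each library left out. Barcode headers of the C57BL/6J files share a number between fresh and stored libraries, and aliquots of the same suspensions were stored, so a replicate block was added after seeing the data. Deviations of same-numbered cold fresh and cold cryopreserved endothelial sums correlated at 0.0797 to 0.232, those of cold fresh and cold methanol-fixed sums of all barcodes at 0.407 to 0.485, and those of cold and warm methanol-fixed sums of all barcodes at 0.132 to 0.282. Warm fresh and warm methanol-fixed sums of all barcodes gave 0.0297 to 0.377. Cold and warm fresh sums gave -0.127 to 0.121 for all barcodes and -0.00521 to 0.216 for endothelial cells. Cold fresh and cold cryopreserved sums of all barcodes gave -0.0138 to 0.0836. No 2 libraries of a group agree within sampling noise (chi-square per degree of freedom 3.02 or more), and libraries shared at most 1.78% of barcodes of the smaller one.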

Additional observations from a re-analysis of the deposited data

Results flagged for a closer look

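The warm response of 12 pairs of regulator and class was smaller in cryopreserved than in fresh cells by the test of that difference itself, on the log2 scale. In macrophages the difference was -3.49 for *Dusp1* (adjusted p = 2.86e-09), -3.09 for *Zfp36* (2.75e-05), -2.32 for *Btg2* (1.03e-05) and -2.36 for *Ppp1r15a* (0.0122). In T cells the difference was -5.26 for *Dusp1* (6.95e-06), -3.70 for *Ppp1r15a* (0.00123) and -1.87 for *Btg2* (0.0205), and in B cells -4.74 for *Dusp1* (0.0013), -2.88 for *Ppp1r15a* (0.0122) and -2.20 for *Zfp36* (0.0261). In endothelial cells it was -1.81 for *Btg2* (0.0242) and -1.85 for *Ppp1r15a* (0.0242). Of 12 fits that each left out 1 library, the call was lost in 0 for *Dusp1* in all 3 immune classes, for *Btg2* and *Zfp36* in macrophages and for *Ppp1r15a* in T cells. In the cold fresh libraries T cells held 3 UMIs of *Dusp1* and B cells 1, and *Ppp1r15a* held 3, 2 and 0 UMIs in T cells and 2, 3 and 1 in B cells. These pairs may have passed the filter on low counts through the other groups alone, and the fitted sizes of their differences depend on the prior count of the fit. Of the 12 pairs, the call was lost in 1 fit, without cold fresh replicate 2, for *Ppp1r15a* in macrophages and B cells, and in 6 to 8 for the other 4 pairs.

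The warm response also differed from that of the proximal tubule in fresh cells in 5 pairs. It was called larger for *Zfp36* in the thick ascending limb (4.19, adjusted p = 4.86e-07), where the cold libraries held 2 UMIs, so that this size depends on the prior count of the fit, and DESeq2 did not call it (adjusted p = 0.307). It was larger by 3.45 for *Zfp36* (2.88e-15), 1.82 for *Dusp1* (7.81e-05) and 2.22 for *Ppp1r15a* (0.0302) in macrophages, and the difference was -1.42 for *Dusp1* in endothelial cells (6.00e-05). The macrophage call of *Dusp1* was lost without cold fresh replicate 2 (1.60). That of *Ppp1r15a* was lost without any single library other than warm fresh replicate 2 (1.79 without cold fresh replicate 2), and with DESeq2 (adjusted p = 0.170).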

How the results depend on the processing

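No called value changed direction under any alternative. Bulk calls stayed at 6 with any library left out and female bulk calls at 0, and 4 of the 6 bulk calls passed the log2 fold change of 2 that the study also required. With 1 library left out, the number of called pairs of regulator and class ranged from 28 to 32 for fresh warm minus cold, 17 to 24 for cold cryopreserved minus fresh, 7 to 12 for warm cryopreserved minus fresh (lowest without the warm cryopreserved replicate 3), 4 to 8 for Balb/c female cryopreserved minus fresh, 9 to 15 for cold methanol-fixed minus fresh, 4 to 11 for warm methanol-fixed minus fresh, 22 to 26 for warm minus cold in cryopreserved cells, 8 to 13 in methanol-fixed cells, 8 to 12 for the difference of that response between cryopreserved and fresh cells, and 3 to 6 for the difference from the proximal tubule. DESeq2 called 19 in place of 20 for cold cryopreserved minus fresh, 5 in place of 8 for the female cells, 7 in place of 15 for cold methanol fixation, 3 in place of 5 for the difference from the proximal tubule, and 21 in place of 28 and 8 in place of 10 for warm minus cold in cryopreserved and methanol-fixed cells, and the cause was not tested. For warm cryopreserved minus fresh it called more, 14 in place of 12. DESeq2 gave no adjusted p to 1, 1, 2 and 2 of the edgeR calls in cold cryopreserved C57BL/6J cells, the female cells, cold methanol fixation and warm minus cold in methanol-fixed cells.

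With the replicate block, 33 pairs were called for fresh warm minus cold, 24 and 14 for cold and warm cryopreservation, 16 and 13 for cold and warm methanol fixation, 29 and 9 for warm minus cold in cryopreserved and methanol-fixed cells, 12 for its difference from fresh in cryopreserved cells and 1 in place of 0 in methanol-fixed cells. The bulk and Balb/c female comparisons could not be blocked, because their labels and headers give no shared number. In fresh cells, where same-numbered warm and cold endothelial sums correlated at 0.216 at most, the block gained *Btg2* in the distal convoluted and connecting tubule (1.64, adjusted p = 0.00257). In cryopreserved cells it gained *Btg1* in intercalated cells (1.32, adjusted p = 0.0109). *Zfp36* in fresh T cells, below the filter without the block, was called with it (adjusted p = 0.0228). The cold T cell libraries held 1, 1 and 1 UMIs of *Zfp36* and the warm ones 13, 18 and 6. This pair could pass the filter through the warm libraries alone, so no fold is given. Of 371 values to which DESeq2 gave an adjusted p 344, and 396 of 400 with RLE factors, kept their direction and side of the threshold, as did 381 of 385 with mitochondrial genes kept, 363 of 371 with the stricter gate, 229 of 241 in 1 fit over all C57BL/6J groups and 362 of 400 without the filter on low counts. Without that filter 38 pairs were called in place of 31 for fresh warm minus cold, 27 in place of 20 for cold cryopreserved minus fresh, 16 in place of 12 for warm cryopreserved minus fresh and 15 in place of 10 for warm minus cold in methanol-fixed cells, and 26 in place of 28 in cryopreserved cells. The filter on low counts limited the tests: 15 of 63 pairs in the fresh comparison and 39 of 70 in cold methanol fixation were below the filter, and a gene absent there cannot be called unchanged. In each comparison of cell classes a pair could pass it through 1 group alone, so the counts of called pairs are partly set by it.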
